A study of Homo sapiens with 2 samples.

Results

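The open chromatin of J76 was described from a single ATAC-seq peak list. J76 is a subline of Jurkat, a human T cell acute lymphoblastic leukemia line, and does not carry the alpha or beta chain of the antigen receptor. All peaks on chromosomes 1 to 22 and X were taken, which were 58730 of the 59631 peaks in the J76 list and of the 145228 peaks in the series. The series used a Tn5 transposase purified on chitin beads by the submitters to tagment J76 and 293T (T293 in the sample label) embryonic kidney cells in logarithmic growth, with no treatment named in the labels. The J76 library was the only one of its line (n = 1), so no value below has a replicate error and no test was made. The sections below describe the J76 list only.

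ATAC-seq reads out where a transposase can reach the DNA, and a peak marks a stretch cut more often than its surroundings. In most cells the sharpest openings lie at the starts of genes in use, while enhancers give narrower openings inside genes or between them. In T cells such distal elements gather around genes of the T cell receptor pathway and of transcription factors such as RUNX1, Ikaros, TCF7 and ETS1, and in T cell leukemia also around oncogenes such as TAL1.

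Each peak carries the authors' fold enrichment and −log10 q at its summit. Read counts were not analysed here, so the depth is unknown, and a gene without a peak is not thereby closed. The lowest −log10 q was 1.32 and the highest 373. Peaks were 200 to 3078 bp wide with a median of 370 bp, and the median fold was 4.83. They covered 31.9 Mb, or 1.05% of the annotated span, at a mean of 19.4 peaks per Mb. Strength is given below as the percentile rank of −log10 q within the list, where 100 is the strongest peak. Positions are in GRCh38, whose contig names the list uses.

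Promoters are shown first because the sequence at a gene start went with the presence of a peak in this list. The lines below give the 250 bases upstream of the outermost RefSeq start of 6 genes, 5′ to 3′ on the gene's strand, from GRCh38.p14. They were chosen after their values were seen, among genes whose start lies at the edge of the annotated gene. The first 4 are T cell genes with few CpG dinucleotides, TAL1 is a leukemia oncogene and MCM2 is a replication gene with many CpG. Capitals mark matches on either strand to 5 motifs. The core of sites for ETS factors was searched as AGGAAG. For RUNX factors, which share many T cell elements with ETS factors, the letters searched were TGTGGT. The core read by GATA factors such as GATA3 was searched as AGATAA. For basic helix-loop-helix factors such as TAL1 an E-box was searched, with the letters CAGCTG. The box that places the start of some inducible genes was searched as TATAAA.
CD2: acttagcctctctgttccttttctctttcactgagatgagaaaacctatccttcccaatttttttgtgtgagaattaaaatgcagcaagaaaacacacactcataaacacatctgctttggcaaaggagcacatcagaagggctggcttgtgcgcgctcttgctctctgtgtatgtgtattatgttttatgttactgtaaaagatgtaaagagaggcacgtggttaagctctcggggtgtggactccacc
CD247: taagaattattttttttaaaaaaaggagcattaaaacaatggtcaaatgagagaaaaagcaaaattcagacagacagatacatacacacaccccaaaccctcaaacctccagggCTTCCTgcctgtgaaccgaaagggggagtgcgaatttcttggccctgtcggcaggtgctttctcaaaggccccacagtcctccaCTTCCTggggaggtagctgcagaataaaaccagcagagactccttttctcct
CD3D: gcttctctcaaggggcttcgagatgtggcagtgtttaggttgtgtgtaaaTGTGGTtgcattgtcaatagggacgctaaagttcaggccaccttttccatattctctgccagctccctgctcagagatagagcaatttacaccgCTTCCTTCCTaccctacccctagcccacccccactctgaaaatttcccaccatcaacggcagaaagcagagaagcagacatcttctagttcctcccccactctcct
VAV1: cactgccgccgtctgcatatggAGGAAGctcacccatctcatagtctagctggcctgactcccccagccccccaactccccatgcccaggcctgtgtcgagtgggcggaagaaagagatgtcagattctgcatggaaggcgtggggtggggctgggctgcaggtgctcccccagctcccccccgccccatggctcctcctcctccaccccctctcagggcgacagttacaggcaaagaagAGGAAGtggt
TAL1: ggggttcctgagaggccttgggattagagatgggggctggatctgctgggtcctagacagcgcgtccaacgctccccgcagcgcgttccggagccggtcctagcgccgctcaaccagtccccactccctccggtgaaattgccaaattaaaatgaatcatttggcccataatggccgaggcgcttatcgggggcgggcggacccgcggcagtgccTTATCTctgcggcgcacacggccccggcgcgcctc
MCM2: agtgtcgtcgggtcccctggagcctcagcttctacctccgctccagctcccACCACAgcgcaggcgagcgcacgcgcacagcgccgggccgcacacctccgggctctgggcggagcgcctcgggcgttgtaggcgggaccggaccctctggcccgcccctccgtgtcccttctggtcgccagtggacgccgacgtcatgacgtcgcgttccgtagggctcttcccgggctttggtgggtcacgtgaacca

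CD2, an adhesion receptor of T cells, had 4 CpG in this stretch (chr1:116754180-116754429, plus strand), none of the 5 motifs, and no peak over it. CD247, which encodes the zeta chain of the receptor complex, had 3 CpG and 2 ETS cores (chr1:167518530-167518779, minus strand) and lay under a peak of 1338 bp with fold 6.08. CD3D, another chain of that complex, had 4 CpG, 2 overlapping ETS cores and 1 RUNX core (chr11:118342706-118342955, minus strand) and lay under a peak of 613 bp with fold 3.75. VAV1, an exchange factor for Rac downstream of the receptor, had 7 CpG and 2 ETS cores (chr19:6772458-6772707, plus strand) and a peak of 729 bp with fold 5.50. TAL1, a basic helix-loop-helix factor active in many T cell leukemias, had 24 CpG and 1 GATA core (chr1:47232336-47232585, minus strand) and its edge lay under a peak of 1246 bp with fold 3.48. MCM2, a subunit of the replicative helicase, had 30 CpG and 1 RUNX core (chr3:127598161-127598410, plus strand) and a peak of 1456 bp with fold 11.1. The CpG-rich MCM2 start thus had the highest fold of the 6, and the peaks over the printed T cell promoters ranged from 613 to 1338 bp. Motifs and peaks did not go together in all T cell promoters that were not printed. That of LCK held 2 ETS cores and 1 RUNX core and had no peak over it. Those of LAT and SH2D1A held none of the 5 motifs and lay under peaks of fold 5.08 and 4.00. That of ZAP70, with 2 ETS cores and 1 E-box, lay under a peak of fold 4.87.

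Across 22012 promoter stretches of this length, 57.2% overlapped a J76 peak. The share rose over 4 groups of about equal size by CpG number. With at most 5 CpG it was 9.63% (95% Wilson interval 8.89 to 10.4), with 6 to 16 it was 51.9%, with 17 to 25 81.9%, and with 26 to 59 86.4% (85.5 to 87.3). Peaks over the CpG-poorest group had a median width of 565 bp and a median fold of 5.68, against 1177 bp and 8.35 in the richest. These intervals, like all below, cover counting error only.

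Within the CpG-poorest group, 539 promoters lay under a peak and 5057 did not. The ETS core letters stood in 40.4% (36.4 to 44.6) of the former and 34.5% (33.2 to 35.8) of the latter, and the RUNX core letters in 20.8% (17.6 to 24.4) and 14.7% (13.8 to 15.7). The GATA core letters went the other way, with 13.2% (10.6 to 16.3) against 17.2% (16.2 to 18.3), as did the TATA box with 18.0% against 22.5%. The E-box letters stood in 17.6% and 15.8%, with overlapping intervals. Over all promoters, of which 28.7% hold the ETS core, 9.37% the RUNX core, 7.10% the GATA core, 13.7% the E-box and 9.02% the TATA box, the order turned for ETS, RUNX and the E-box. There the ETS core was in 26.7% of those with a peak and 31.5% of those without, the RUNX core in 7.21% and 12.3%, and the E-box in 12.1% and 15.8%. A match is a run of letters and not a bound site.

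Location was read from each peak's summit against 19974 RefSeq protein-coding genes. A known gene start within 1 kb held 10618 peaks, or 18.1% of the list (17.8 to 18.4), in windows that make up 1.20% of the annotated span, a ratio of 15.1. Another 2200 peaks (3.75%) lay within 1 kb of an end of a gene whose strand the sequence table does not give, and 684 (1.16%) at a known far end. Gene bodies held 18261 peaks (31.1%), fewer than their 40% of the span. The other 26967 peaks (45.9%) lay between genes. Of these, 13241 were up to 50 kb from a gene, 9252 were 50 to 500 kb away and 4474 were farther.

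Peaks at gene starts were wide and strong, and all distal classes were alike in width. The median width was 1015 bp at known starts and 902 bp at ends of unknown strand, but 307 to 330 bp at known far ends, in gene bodies and between genes. The median rank was 87.2 at known starts and 82.5 at ends of unknown strand. It was 49.8 at far ends, 46.3 within 50 kb of a gene, 41.7 in gene bodies, 38.8 at 50 to 500 kb and 31.6 beyond 500 kb. Far ends of genes, with a median width of 326 bp and a ratio to their span of 1.27, were closer to gene bodies than to starts in both measures.

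**Figure D1:**
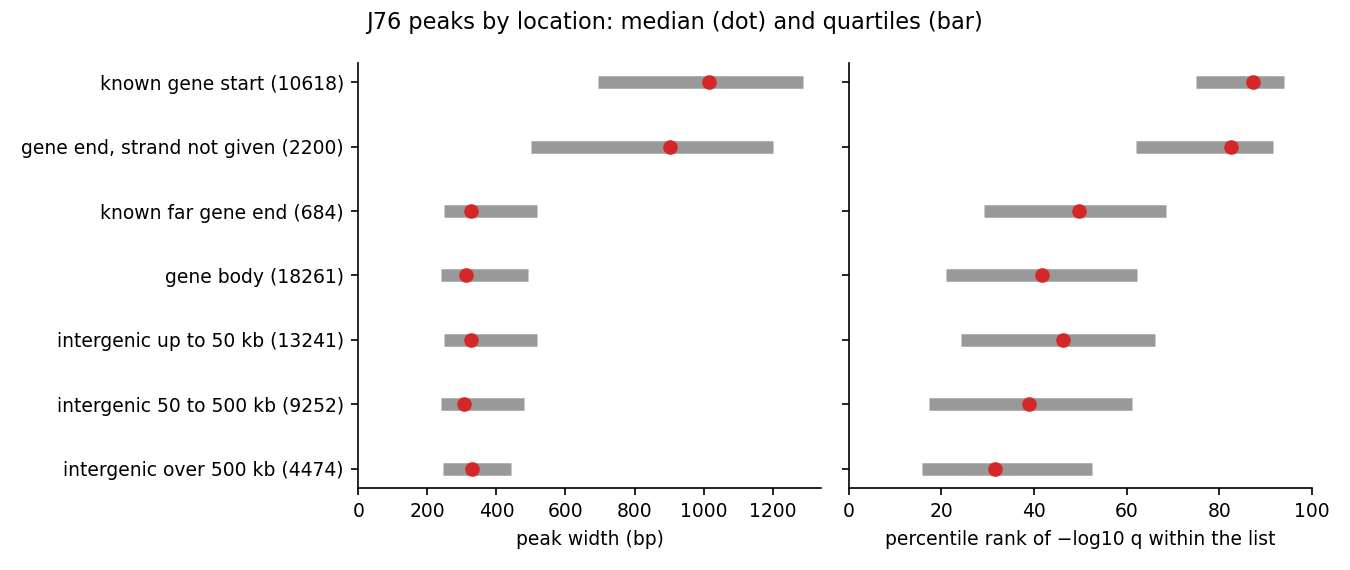
Width in bp (left) and percentile rank of −log10 q (right) of J76 peaks in 7 location classes, with the number of peaks in parentheses. Dots are medians and bars run between the quartiles. Known starts and ends of unknown strand stand apart from the other 5 classes in both panels.

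The share at gene starts was low in the weaker peaks and rose with strength. With the list cut into 10 near-equal parts by −log10 q, it was 3.98% to 4.72% in the 4 weakest, 5.62%, 6.50% and 8.89% in the next 3, then 19.9%, 49.7% and 73.3% (72.1 to 74.4) in the strongest. The share between genes was 56.4% in the weakest part and 9.86% in the strongest. By width the share at known starts was 4.15% under 250 bp, 25.9% from 500 to under 1000 bp and 61.6% from 1000 to under 1500 bp. It was 68.5% in the next band and 67.2% in the 308 widest peaks. The list had 1888 peaks of 1500 bp or more.

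The label of a T cell leukemia line was checked against 5 marker genes: CD3E, CD2, CD28, TAL1 and IKZF1. Peaks were counted in the gene body plus 50 kb either side, where the median over all coding genes was 5 (quartiles 3 and 7). CD3E had 12, CD2 7, CD28 10, TAL1 8 and IKZF1 20, so each was above the median. These counts include peaks of neighbouring genes: with flanks of 10 kb they were 4, 3, 6, 3 and 15. With each peak given to its nearest gene only, CD3E kept 4, CD2 7, CD28 10, TAL1 3 and IKZF1 18. The median over all genes was not computed at these settings, so the comparison with it holds for the 50 kb flank only. Of the 5 genes, 4 had a peak within 1 kb of a start, which 64.8% of all coding genes had (66.9% of genes with a known strand and 56.9% of those without, for which either end counted). CD2 was the exception, and CD3E was read at either end because its strand is not given. Starts are those of the RefSeq promoter table, which for some genes holds internal starts only, so a peak at the outer edge of such a gene is not counted here as a start peak.

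CD3E, a signalling chain of the receptor complex, had a peak at each end of the gene, whose strand the table does not give. That at the lower end (chr11:118304281-118305352) was 1072 bp wide with fold 5.88 and rank 74.8. That at the higher end (chr11:118315979-118317383) was 1405 bp wide with fold 9.09 and rank 91.8, the stronger of them. CD3D and CD3G lie within the same 50 kb, and their windows held 12 and 13 peaks that are largely the same ones. Starts of CD3D had peaks of fold 2.02 and 3.75, and CD3G had an end peak of fold 4.90.

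CD28, the main costimulatory receptor of T cells, had a peak of only 334 bp on its start (chr2:203706428-203706761) with fold 7.99 and rank 76.9. A wider one of 1410 bp with fold 7.36 lay beyond its far end, 34.7 kb from the gene's outer start. CTLA4 and ICOS, relatives of CD28 next to it on chromosome 2, had 0 and 1 peaks in their windows.

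CD2 had no peak at its start. Its strongest peak by −log10 q, 1149 bp wide with fold 8.29 and rank 79.8, lay at the far end of the gene, 15.4 kb from the start (chr1:116769050-116770198). A narrow peak of 294 bp with fold 8.46 lay 43.0 kb upstream. The 2 peaks inside the gene had folds of 3.07 and 4.35.

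TAL1 had a peak at its start of rank 50.9 (chr1:47231101-47232346), below the median rank of 88.7 over all genes with a start peak. Another peak of 886 bp with fold 5.16 and rank 67.8 lay 7.05 kb upstream (chr1:47238848-47239733). The other 6 peaks of its window, of fold 3.07 to 6.46, lay in the gene or downstream of it.

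IKZF1, which encodes Ikaros, a zinc finger factor needed for lymphocyte development, had the most peaks of the 5. Its 20 peaks amounted to 99.2 per Mb, below the 108 per Mb of CD3E. Among the 3342 coding genes of 100 kb or more, whose median was 19.1, the density of IKZF1 was the highest. This ordering of long genes was added after the data were seen. Of the 20 peaks, 14 lay inside the gene, and 11 of these followed one another in a single run from 50333307 to 50379373 on chromosome 7. Folds were low, with a median of 2.99 over the 20, but 10 of the 20 had a rank of 50 or more. The strongest inside the gene was chr7:50360116-50360945 (fold 7.02, rank 88.1), and a peak of 2039 bp (fold 5.70, rank 85.9) lay 36.3 kb upstream. The start itself had a peak of fold 3.81 and rank 75.3. The strongest in the window, of fold 10.1, lay 147 kb downstream of the outer start, at the start of another gene.

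**Figure D2:**
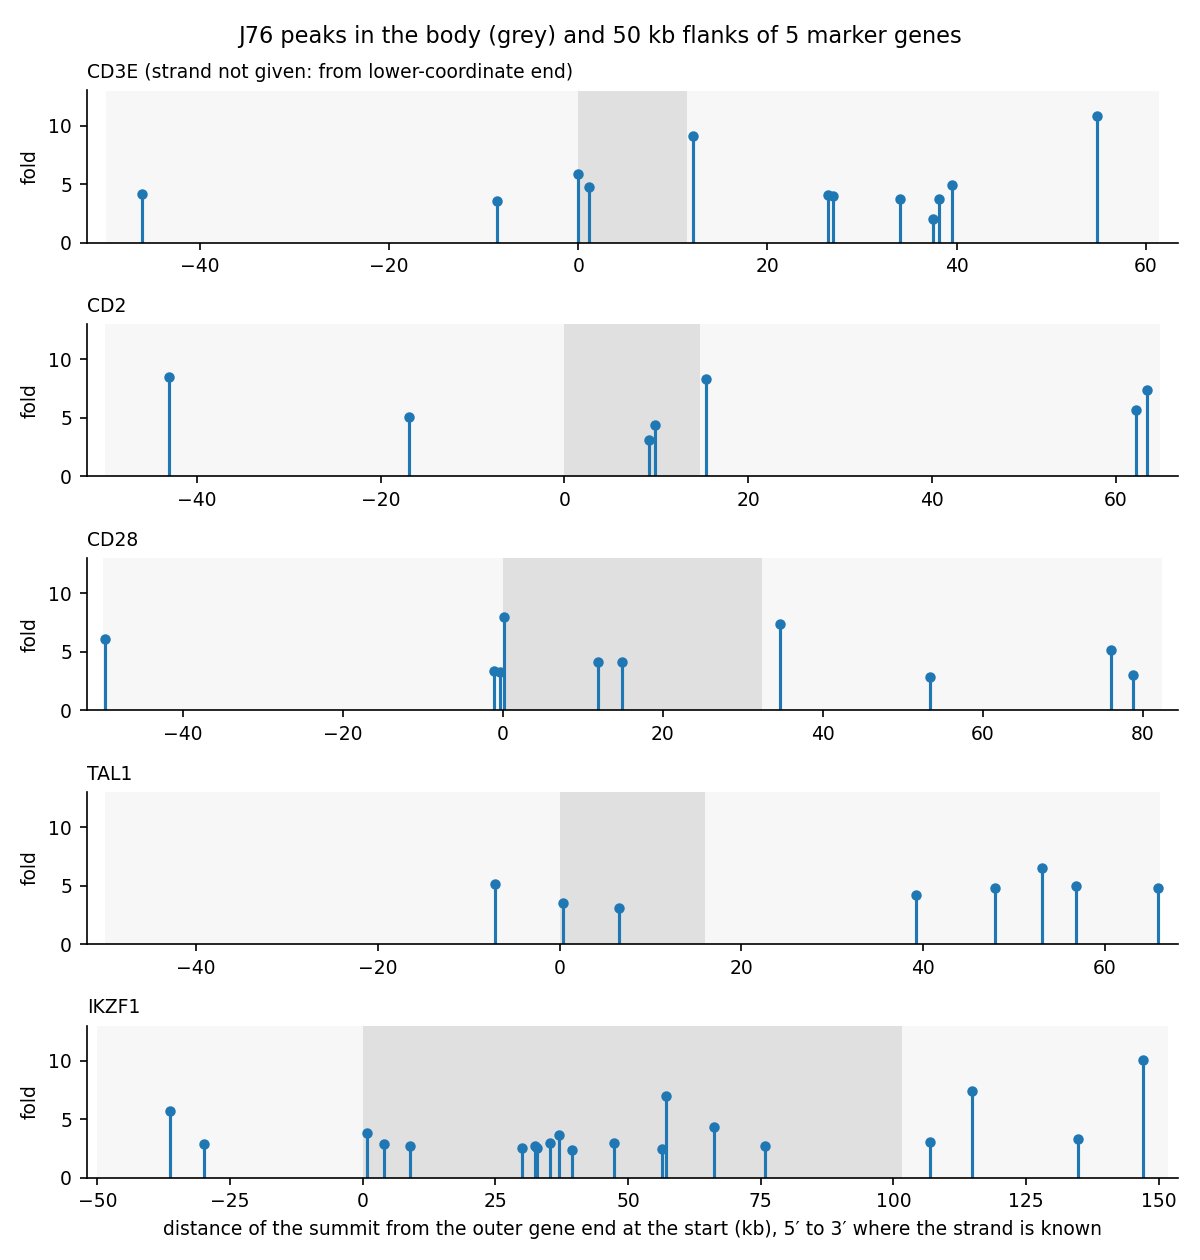
Fold enrichment of every J76 peak in the body (grey) and 50 kb flanks of CD3E, CD2, CD28, TAL1 and IKZF1, by distance in kb of the summit from the gene's outer start. CD3E is drawn from its lower-coordinate end; its highest stem, of fold 10.8, stands at the start of UBE4A, and IKZF1 shows the row of 14 peaks inside the gene.

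The pathway around these markers was read through gene lists, given beside all coding genes (64.8% with a start peak, median 5 peaks, 31.8 peaks per Mb). The lists were written with results of these data known, so their counts are descriptions. All 20 genes of the T cell receptor complex and its proximal signalling had a start peak, with a median of 10 peaks and 58.9 per Mb. Their start peaks were modest, with a median rank of 72.3 and a median width of 744 bp, against 88.7 and 1068 bp over all genes. CD3G and VAV1 had 13 peaks each, and CD3E and CD3D 12. LCK, the kinase that phosphorylates the CD3 chains, had 8 peaks, with fold 8.89 and 1392 bp at one of its starts. ZAP70, the kinase recruited to those chains, had 11 peaks with fold 4.87 and 565 bp. No member had 0 peaks, and PLCG1 and PTPN22 had the fewest with 4.

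Among surface receptors of T cells 12 of 24 had a start peak (50%, 31.4 to 68.6, an interval that covers the 64.8% of all genes), with a median rank of 53.0 and a median width of 365 bp, while the density was 56.6 per Mb. Of the 14 with a promoter in the sequence set, 11 fell in the CpG-poorest group, and 7 of the 14 overlapped a peak. Over all promoters, 9.63% of that group did so. How many of the 7 belong to that group was not counted, so the shares are not like for like. PDCD1, which encodes the inhibitory receptor PD-1, had 15 peaks, a number that 1.53% of all genes reached, and CD4 and IL7R had 13 each. These counts belong to the flanks, since 0 summits lay inside PDCD1 and IL7R and 1 inside CD4. CXCR4, a chemokine receptor, had the widest start peak of the list at 2509 bp (fold 4.16). CD8A had a peak of 1471 bp (fold 8.49) and CD8B none at an end. CD5, CD69, CD40LG, CCR7 and IL2RA had no start peak but 4 to 7 peaks in their windows. CTLA4 had 0 peaks, as 4.12% of all coding genes did. With peaks of −log10 q of at least 10 alone, 7 of the 24 surface genes had a start peak. Among the CD1 genes, which present lipids to T cells and mark cortical thymocytes, CD1A and CD1D of 5 had a start peak.

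Transcription factors of the T lineage combined both features. Start peaks stood at 20 of 22, with a median width of 1389 bp and rank of 84.7, and the median number of peaks was 11.5. Of the 18 with a promoter in the sequence set, 1 fell in the CpG-poorest group, and 14 overlapped a peak. Their median was 19.5 CpG, and of all promoters with 17 to 25 CpG 81.9% overlapped a peak, so their start share was not unusual for such promoters. RUNX1 had 25 peaks, IKZF1 20, TOX 18 and LEF1 17, and 7 of the 22 reached 15, as 1.53% of all coding genes did. These factor genes are long, with a median of 128 kb against 24.2 kb over all coding genes. Of the 2353 coding genes of 100 to 250 kb, 66 reached 15, and their median was 5 peaks. GATA3, a factor of T cell commitment, had 5 peaks with a start peak of 1987 bp, and TCF7, which encodes TCF-1, had 11 with one of 1480 bp. ETS1 and FLI1, neighbouring ETS factor genes with overlapping windows, had 13 peaks each and none at an outer end. ZEB1 and RUNX3 had only 3 each, with start peaks of 2347 and 1270 bp.

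Of the oncogenes of T cell leukemia, 5 of 12 had a start peak (41.7%, 19.3 to 68.0, which covers the 64.8% of all genes). TAL1 and LMO1 had 8 peaks each, and the start peak of LMO1 was 735 bp with fold 4.86. LMO2, whose protein binds TAL1, had 5 peaks and one of 315 bp with fold 6.10 at an end. LYL1 and HOXA9 had 9 and 8 peaks but none at the start, and TLX3 had 0. Notch pathway genes had start peaks at 11 of 12, including NOTCH1 (1826 bp, fold 6.50), while NOTCH3 had none. PTCRA, the surrogate alpha chain of the immature receptor, had 8 peaks and only 219 bp with fold 3.55 at its start. Of the recombination genes, RAG1 had a start peak of 1368 bp with fold 9.24 and rank 94.4, and RAG2 next to it a narrow one with fold 4.23 and rank 41.5. DNTT, the polymerase that adds untemplated bases at joints, was the 1 of 10 without a start peak.

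Markers of other blood cells had start peaks in fewer than 40% of members. Myeloid genes had a start peak in 3 of 16 (SPI1, CEBPA and CEBPE), B cell genes in 5 of 16, cytotoxic genes in 6 of 16 and erythroid genes in 6 of 16, TAL1 among the last. Many of their promoters were poor in CpG: the CpG-poorest group held 10 of 12 myeloid, 7 of 11 cytotoxic, 5 of 8 erythroid and 4 of 10 B cell promoters in the sequence set. MS4A1, CD79A, CD79B and PAX5 had none at a start, nor had MPO, ELANE, LYZ and CD14, GZMB and IFNG, or GATA1 and HBB. Their densities were less far apart, with 43.8 per Mb for myeloid, 37.3 for cytotoxic, 30.6 for B cell and 30.3 for erythroid genes. NKG7 had 12 peaks within 50 kb and no start peak. The window set these counts in part: at 2.5 kb, 9 B cell and 10 erythroid genes had a start peak, and with either end used for every gene 5 myeloid genes did. CYP3A4 in the hepatocyte list had 0 peaks. Genes shared by all leukocytes had start peaks in 15 of 22 and 54.2 peaks per Mb, led by VAV3 with 23 peaks and PTPRC, which encodes CD45, with 18.

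Non-blood lists were split. Hepatocyte genes had start peaks in 6 of 16 and epithelial genes in 7 of 18, but mesenchymal genes in 11 of 16 and neuronal genes in 10 of 16, close to the background. VIM, an intermediate filament gene that lymphocytes also express, had one of 2692 bp. Neuronal genes had the lowest density, 20.3 per Mb, and a median length of 93.3 kb against 24.2 kb over all coding genes. Density was lower in longer genes in general, and the lists were not matched for length. RBFOX1 had 6 peaks in a window of 2574 kb. All 20 ribosomal protein genes and all 20 replication genes had start peaks, with median ranks of 92.4 and 94.5. Their windows held a median of 5 and 5.5 peaks, near that of all genes, at 48.4 and 43.4 per Mb, above the 31.8 of all genes. These genes are short, with median lengths of 5.36 and 17.0 kb.

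**Figure D3:**
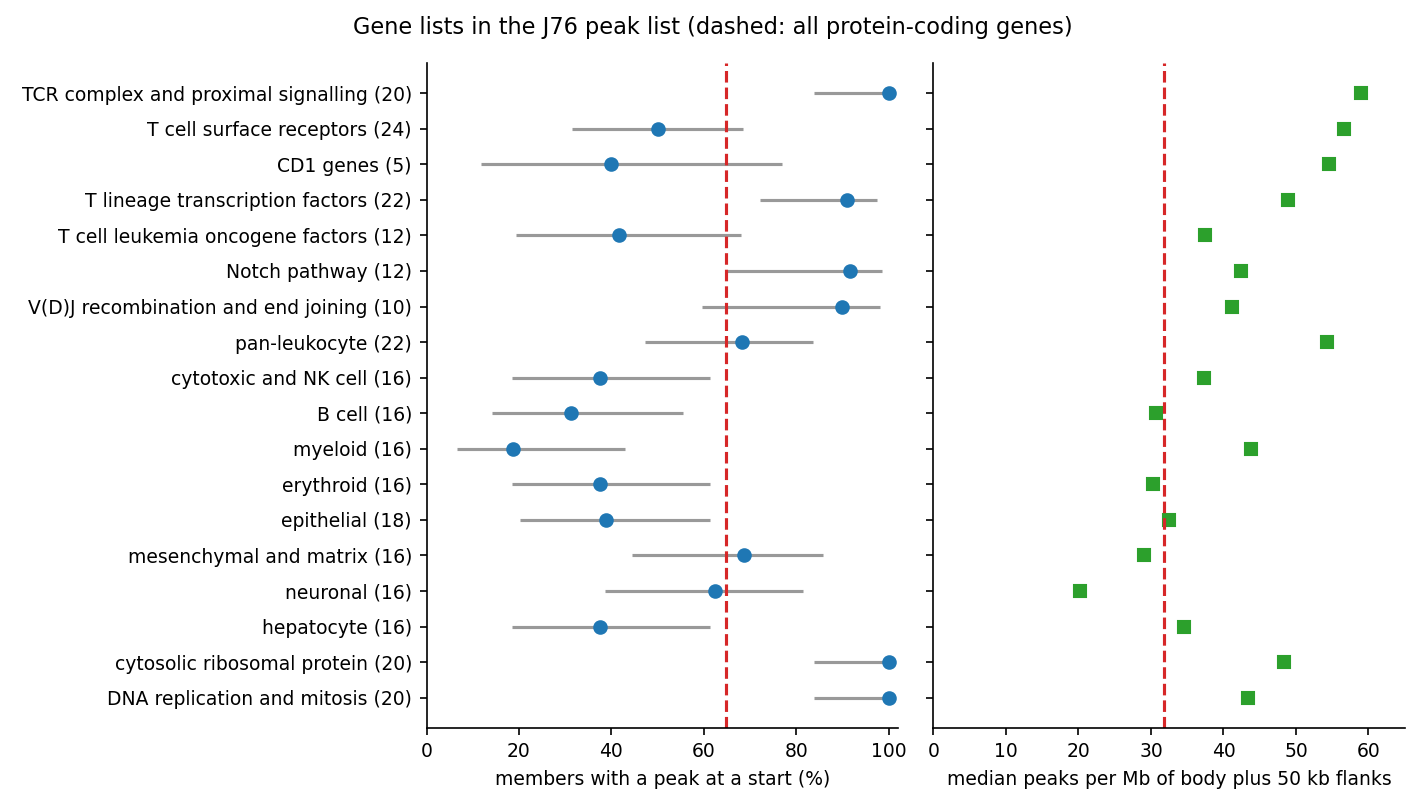
Share of members with a J76 peak within 1 kb of a start, with 95% Wilson intervals (left), and median peaks per Mb of body plus 50 kb flanks (right), for 18 gene lists with the number of members in parentheses. Dashed lines mark all coding genes at 64.8% and 31.8 per Mb. The receptor signalling, ribosomal and replication lists stand at 100%. The first 4 lists, all of T cell genes, have 48.9 to 58.9 peaks per Mb. Pan-leukocyte genes (54.2) lie in that range, ribosomal genes (48.4) just below it, and T cell leukemia oncogenes (37.5) lower.

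The receptor gene loci themselves were uneven. TRB, the beta locus on chromosome 7, held 52 peaks in 514 kb (101 per Mb), and TRG, the gamma locus, 18 in 128 kb (141 per Mb). Of these, 30 of the TRB peaks and 16 of the TRG peaks lay within 500 bp of a gene segment. Past TRBC2, a beta constant gene, a peak of 1237 bp stood at chr7:142808429-142809665 with fold 5.95 and rank 92.0. TRA, the alpha locus on chromosome 14, held 15 narrow peaks in 930 kb (16.1 per Mb), with a median width of 258 bp. No peak lay in the 542 kb between 22003798 and 22546180, which contains TRD, the delta locus, where 0 peaks lay in 374 kb. Just past TRAC, the alpha constant gene, stood a peak of 1424 bp with fold 6.40 and rank 87.0 (chr14:22556072-22557495). V segments are near-identical repeats in part, so peaks within these loci are uncertain where reads could map to several of them.

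Most of the genes with the most peaks in body plus 50 kb were long, HOOK2 with 29.3 kb being an exception. PTPRN2, a phosphatase-like protein of secretory granules, led with 37 peaks over a gene of 1049 kb. GSE1 and CELF2 followed with 35 each, and PRKCH and GPHN with 31. CAST and DLGAP2 had 28, and CDH4 and DLG2 26. With 25 came RUNX1, IQSEC1, LDLRAD4, RIMS2 and GALNT13, and HOOK2, CHST11 and MYT1L had 24. MBNL1, ABR, CDK6, ETV6, VAV3 and ELMO1 had 23. LRRC37A2 and RANBP2 also reached 24, but near-identical gene copies make their counts uncertain. The order depended on the flank and the threshold: 61 of the first 100 genes remained among the first 100 with flanks of 10 kb, and 37 with peaks of −log10 q of at least 10 only.

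Longer genes had more peaks: the median rose from 4 for genes under 10 kb to 9 for genes of 500 kb or more while density fell from 39.4 to 9.80 per Mb. The leading genes differed widely in density, and many lay between the extremes named here. DLG2, a synaptic scaffold gene of 2173 kb, had 11.4 peaks per Mb, GALNT13 16.8 and GPHN 23.4, against the median of 9.80 for their length. MBNL1 (71.4 per Mb), ABR (70.5), CDK6 (69.3), RUNX1 (69.2), PRKCH (66.9) and ETV6 (66.5) were several times denser. These genes are shorter, and the median was 21.7 per Mb for genes of 100 to 250 kb and 15.6 for those of 250 to 500 kb. CDK6 encodes a D cyclin kinase, ETV6 an ETS repressor and PRKCH a protein kinase C. CELF2, which encodes an RNA-binding splicing regulator, had 35.9 per Mb.

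In PRKCH 26 of 31 peaks lay inside the gene, and the neighbours were a median of 10.8 kb apart. CELF2 had 32 of 35 inside it, 8.85 kb apart, with start peaks of up to fold 8.13. In RUNX1 20 of 25 lay inside it, the widest being 2026 bp, and 2 were at the tabulated start, which is internal. Another of 1276 bp, with fold 3.87 and rank 61.7, lay across its outer edge. DLGAP2, with 28 peaks, has no tabulated start, as for all genes of chromosome 8, and had no peak at either gene end. MYT1L, with 24 peaks, had none at a tabulated start. Nor had CDH4 and VAV3, but a peak of 1816 bp with fold 6.22 lay across the outer edge of CDH4 and one of 1734 bp with fold 5.96 across that of VAV3. VAV3, a Rac exchange factor related to VAV1, had 20 of its 23 peaks inside the gene, and the median rank over the 23 was 25.4, so these were mostly weak.

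Peak density per Mb of the same window picked short genes in gene-dense places. THSD8 had 205 per Mb (21 peaks), in a locus shared with JUNB, PRDX2 and HOOK2 on chromosome 19. VAMP2 (193 per Mb) lay beside PER1 and AURKB on chromosome 17, and CNN2 (187 per Mb) beside ABCA7 on chromosome 19. KLHL17 had 171, WDR24 170, RPLP2 155, ZNF784 154, MTX1 152 and UAP1L1 150 per Mb. These counts belong to neighbourhoods and not to single genes, since 8 to 19 genes share each window. After IKZF1 the densest long genes were SPTBN4 (95.5 per Mb), GALNT9 (85.8) and MGAT4A (84.9), and PTPRC had 82.3, EVL 77.0 and CCDC88C 81.1.

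The strongest fold at a gene start was at PASD1, a cancer-testis gene, with fold 21.1 over a narrow 282 bp peak. GOLPH3L and HORMAD1 share a peak of fold 15.9. SPIN2B, BEX2 and RBM11 had fold 15.8, TTC29 15.3 and SPC25 15.2, the last being a kinetochore gene. The highest folds of the whole list were mostly not at starts. The first was a peak of 391 bp and fold 36.3 on chromosome 13, 216 kb from MYO16, and the highest −log10 q, 373, belonged to a peak of 573 bp on chromosome 2, 30.5 kb from LTBP1. Of the 10 highest folds, PASD1 was the 1 at a known start.

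Among the 10 widest peaks, 6 were at known starts. These were at SMARCA2 (3074 bp), a chromatin remodelling ATPase, NR3C1 (3041 bp), the glucocorticoid receptor gene, CPEB2 (2982 bp), SINHCAF (2971 bp) and the histone genes H2AC18 and H2AC19 (2912 and 2886 bp), which have near-identical copies. A peak of 2954 bp lay in the body of ARID1B. The widest of all, 3078 bp, lay on chromosome 16 between genes, 179 kb from SHCBP1, with a fold of only 2.81. The other 2 were between genes on chromosome 21 (3046 bp, with TPTE as the nearest named gene) and chromosome 18 (2999 bp, with TUBB8B).

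No peak lay in the window of 823 coding genes. Of these, 172 were on chromosome X, where 20.3% of genes had none, and 12, GSTT1 among them, are tabulated in the first 1 Mb of chromosome 22, where no peak lay. Whether those positions belong to chromosome 22 in the build of the list was not tested. The longest were NCKAP5 (1003 kb), ADGRL2 (688 kb), DACH2 (684 kb), SHISA9 (661 kb) and CNTN1 (380 kb), of which SHISA9 and CNTN1 are known from neurons. Families are given beside all coding genes, of which 4.12% had 0 peaks and 64.8% a start peak, at 31.8 peaks per Mb. Olfactory receptors had 0 peaks in 111 of 392 genes and a start peak in 4.08%, keratin-associated genes in 27 of 94 and 7.45%, and interferon alpha genes in 12 of 13 and 0%. ZNF zinc finger genes had a start peak in 388 of 517. Histone genes, of which 69.6% had a start peak, stood in regions of 79.1 peaks per Mb. These families were chosen after the data were seen.

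Density followed gene density across chromosomes. Chromosome 19 had 43.7 peaks per Mb with 24.8 genes per Mb, and 17 had 27.0 with 14. Without peaks over 500 kb from a coding gene, chromosome 19 had 37.4 per Mb and was still the highest. Chromosome 20 reached 26.9 with only 8.35 genes per Mb. The lowest were chromosome 13 with 10.8 peaks and 2.96 genes per Mb, and X with 8.34 peaks although it has 5.43 genes per Mb. On X 50.5% of genes had a start peak, against 55.6 to 72.6% elsewhere.

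**Figure D4:**
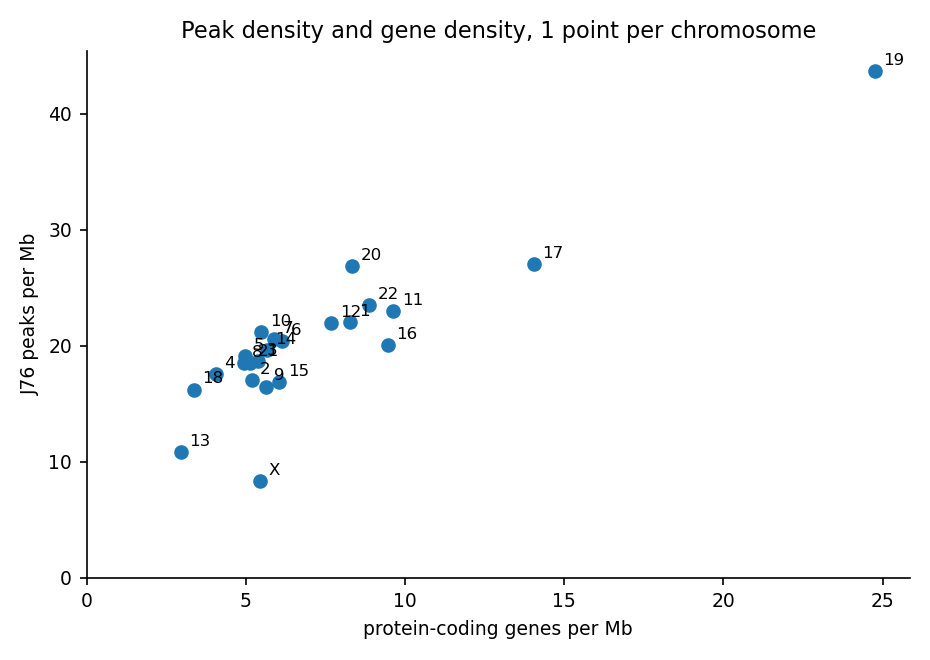
J76 peaks per Mb against protein-coding genes per Mb, 1 point per chromosome. Chromosome 19 lies at the upper right (43.7 and 24.8), and X (8.34 and 5.43) lies below chromosomes of similar gene density such as 10 (21.2 and 5.49).

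In 3020 windows of 1 Mb the median was 17 peaks (quartiles 8 and 26), with 135 windows empty. Windows without a coding gene had a median of 5 peaks, those with 1 to 4 genes 12, and those with 20 or more 43. The Spearman correlation with gene number was 0.710 and Pearson's 0.618 over windows, which share depth and neighbours. The richest 10% of windows held 26.4% of the peaks. The richest 9 windows, with 100 to 164 peaks each on chromosomes 1, 5, 10 and 19, held no gene in the table, and no gene is therefore named for the 5 richest. Their median folds were 4.13 to 4.39 and median ranks 32.8 to 45.0. Positions of centromeres and repeats were not used here.

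Among windows with genes, chromosome 19 from 1 to 2 Mb came first with 86 peaks and 38 genes, including TCF3, STK11 and GPX4. Next came a window on chromosome 4 with 83 peaks and 1 gene, CWH43, with 0 peaks at a gene end. A window on chromosome 11 followed with 79 peaks and 49 genes. The window with CD4, LAG3, CD27 and PTPN6 on chromosome 12, named for these genes, held 73 peaks and 40 genes, GAPDH, CHD4 and VWF among them. Chromosome 1 from 198 to 199 Mb was also poor in genes, with 51 peaks and only the 3 genes NEK7, ATP6V1G3 and PTPRC. Only 4 of those peaks lay at a gene end.

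Neighbouring summits were a median of 22.4 kb apart (quartiles 8.18 and 56.0 kb) and a mean of 50.5 kb. With peaks of −log10 q of at least 10 alone the median was 39.1 kb. The distances had a broad hump near 25 kb and a small one below 2 kb. Of 58707 neighbour pairs, 6.24% (6.04 to 6.43) lay within 1 kb and 72.1% within 50 kb. The share within the distance used below to join neighbours into runs was 34.6% (34.3 to 35.0). In the 3661 pairs within 1 kb, both peaks were at a known start in 619 (16.9%), and a start stood between them in 370 (10.1%). The median distance to the nearest peak was 11.4 kb at known starts, 11.2 kb in gene bodies and 17.0 kb at 50 to 500 kb from genes. Beyond 500 kb it was 6.44 kb, and 42.2% of those peaks lay in 20 windows of 1 Mb. Without the peaks beyond 500 kb the median spacing was 23.2 kb, and 33.4% of pairs lay within the joining distance.

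**Figure D5:**
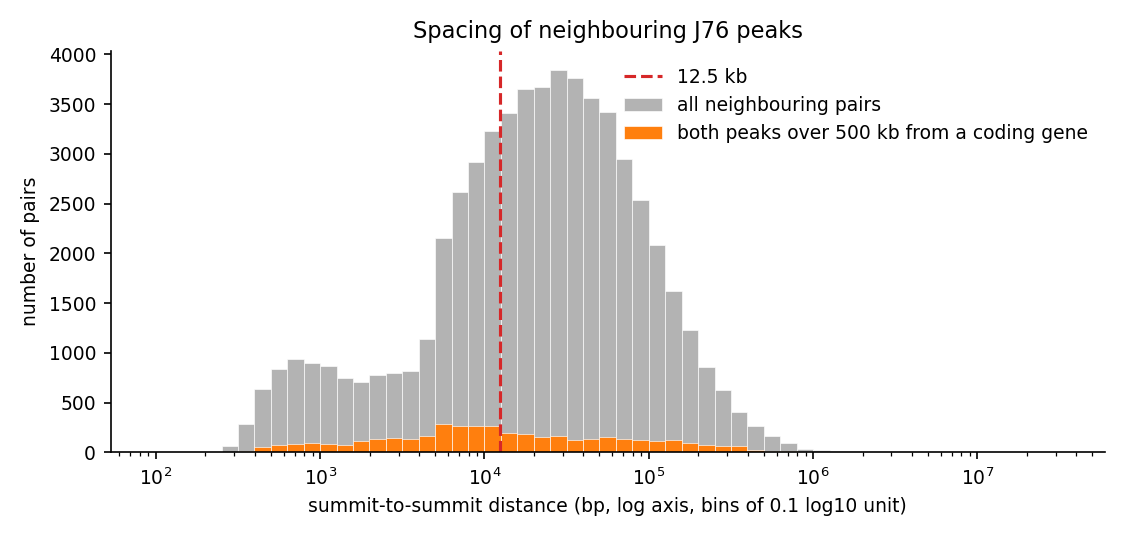
Number of neighbouring J76 peak pairs by summit-to-summit distance in bp on a log axis (grey), with pairs in which both peaks lie over 500 kb from a coding gene in orange. The dashed line marks the distance used to join peaks into runs, to the left of which 34.6% of pairs lie.

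Joining neighbours within that distance gave 38394 runs, of which 26919 were single peaks (45.8% of the list). Runs of 5 or more numbered 916 and held 11.1% of peaks, and 105 had 10 or more. Of those 105, 66 touched no coding gene and held 1264 peaks, while 39 touched genes and held 479. The longest had 92 peaks in 392 kb on chromosome 1 (124391782 to 124784374), and none of the 10 with most peaks touched a gene. The named genes nearest to those 10 were LINC02798, ZNF254, UQCRFS1, EMB, H3-7, ZNF33B and CWH43, at 66.3 kb for CWH43 and at 676 to 3125 kb for the others.

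Runs on genes differed in setting. Gene-dense runs lay over ALOXE3, PER1, VAMP2 and AURKB (22 peaks, 8 at a gene end), over MCRIP2, WDR24 and STUB1 on chromosome 16 (19 peaks) and over CNN2 and ABCA7 (16 peaks). Runs inside single genes included PTPRC (12 peaks in 45.2 kb, 9 in the body class), TNFAIP8 (12), IKZF1 (11) and FYB1 (11), which encodes an adaptor of T cells, and IGF2R (12). Small RNA genes were the other setting. The run over PER1 and AURKB held 18 of them, and that at TMEM106A and CCDC200 (25 peaks) held 13. The run at RHOU (14 peaks, median fold 1.73) held 17 RNA5S genes, which encode 5S ribosomal RNA in tandem copies, and its values are uncertain where reads could map to several of them.

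Long stretches without a peak were the counterpart. Gaps over 1 Mb numbered 57, 20 of them on X and 30 without a coding gene. The longest, 18.0 Mb on chromosome 1, held no coding gene. Whether it spans a centromere or sequence missing from the build was not tested. The gap with the most genes was 2.37 Mb on chromosome 9 (21119502 to 23492310) with 20 genes, among them most of the interferon alpha cluster, MTAP, CDKN2A, CDKN2B and DMRTA1. CDKN2A and CDKN2B encode inhibitors of CDK4 and CDK6, and MTAP is a housekeeping enzyme of methionine salvage. Just below it the list had 5 peaks between 21081619 and 21119766, the last of 850 bp with fold 6.77. Other gene-rich gaps were 278 kb with 19 keratin and keratin-associated genes on chromosome 17, 308 kb with 18 keratin-associated genes on chromosome 21, and 1.11 Mb with 16 genes of the MAGEA region on X. Loss of the DNA, absence of open chromatin and sequence where reads cannot be placed cannot be told apart from a peak list.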

How the data were processed

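ATAC-seq was made from J76 and 293T cells with 1 library each, and only the J76 peak list was used. Per the submitters' processing notes Bowtie2 and MACS2 were used; their versions and settings, duplicate removal, any cut-site shift and the build were not given in the sources used here. Per the layout of the deposited list, the authors' fold enrichment is a linear ratio, the p-value and q-value are −log10 values, and the deposited integer score is, in 100% of peaks, the whole part of −log10 q times 10. The positions of summits come from the same list. Peaks elsewhere, 901 (1.51%), were left out.

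Locations, counts and distances were computed with Python 3.11.15, pandas 2.3.3, numpy 2.4.6 and scipy 1.17.1, and figures with matplotlib 3.10.9. Genes came from the RefSeq GRCh38.p14 table and starts from its promoter table, which has an entry for 15812 of 19974 coding genes. For the other 4162, all genes of chromosome 8 among them, either gene end was used. The span of a chromosome ends at its last annotated gene. The functions were tested on simulated peaks. Peaks were counted where the summit lay in the gene body or 50 kb either side, and neighbours within 12.5 kb were joined into runs; start peaks were counted where a peak overlapped 1 kb either side of a start.

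The members and lists were chosen with earlier results of these data known. Named genes were the 5 markers, the 25 loci with most peaks (overlapping windows being 1 locus), the 10 densest, the 10 highest folds at starts and the 10 widest peaks, up to 4 members per list with most peaks and up to 4 with none, the gene nearest each of the 10 largest runs and genes in the 5 richest windows, without provisional names; any further gene was picked with its values in view. Some genes chosen in this way are not reported here. The alternatives tried were stricter −log10 q limits (5 and 10), other windows and flanks, ranks by fold, edge distances and 1 gene per peak.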

Additional observations from a re-analysis of the deposited data

Results flagged for a closer look

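A signal outside the main measurement was found on unplaced contigs, with 674 peaks on 92 contigs that no comparison above used. There was no control sample, and these peaks are part of the same deposited list. Their gene content was not analysed here.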

How the results depend on the processing

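Of 239 values recomputed under alternatives, 158 stayed within the error or the 1.5-fold limit used and 81 moved. Among single genes and peaks, 31 of 85 values moved.

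At a −log10 q of at least 5 and of at least 10, the share of peaks at known starts (18.1% in the full list) was 21.8% and 30.4%, and the share between genes (45.9%) was 43.1% and 37.2%. The median width was 1040 and 1076 bp at starts (1015 bp) and 354 and 478 bp in bodies (311 bp). The median rank was 84.8 and 79.0 at starts (87.2) and 38.9 and 34.4 in bodies (41.7). The median spacing (22.4 kb) was 27.7 and 39.1 kb, and the share of pairs within the joining distance (34.6%) was 30.2% and 22.7%. Genes with a start peak (64.8%) were 63.2% and 60.7%, and genes with 15 or more peaks (305) were 138 and 17. At 10, the median per 1 Mb window was 8 (17), chromosome 19 had 26.7 peaks per Mb (43.7), 37 of the 100 genes with most peaks remained among the first 100, and 7 T cell surface genes had a start peak (12).

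With a window of 500 bp or 2.5 kb, the share at known starts was 16.2% and 20.6%, between genes 46.9% and 43.9%, and genes with a start peak were 62.8% and 68.9%. The 2.5 kb window gave start peaks to 9 B cell genes (5) and 10 erythroid genes (6). Counting any overlap gave 18.8% at starts. Ranking by fold gave a median of 83.4 at starts. Edge distances gave a median spacing of 21.9 kb and 35.7% within the joining distance. For genes with most peaks, a flank of 10 kb kept 61 of the first 100 and left 81 genes with 15 or more peaks, a flank of 100 kb 54 and 2444, and the nearest gene only 56 and 110.

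Alternatives chosen after seeing the data were these. Using only the most upstream start, 16.2% of peaks were at starts. With 1 peak kept per start the median spacing was 22.9 kb with 34.0% within the joining distance, and without peaks over 500 kb from a coding gene it was 23.2 kb with 33.4%. Ranking genes by peaks per Mb kept 18 of the first 100. With either end used for every gene, 1 CD1 gene (2) and 5 myeloid genes (3) had a start peak. No paired analysis was possible because the line has 1 library. Depth is unknown, so weak sites that were missed cannot be counted, and no value has a replicate.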

Other observations

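The fold column moved in steps. Over the list, 13122 peaks (22.3%) had a fold that was a whole multiple of 0.219, within 0.0002, and shared its pair of fold and −log10 q with at least 20 peaks. The most common pair, fold 3.51 with −log10 q 3.79, occurred in 1349 peaks, and 70.4% of peaks shared their −log10 q with another, so ranks in the weaker part of the list are tied. Peaks on these steps made up 2.27% of the peaks at known gene starts, 26.0% of those in gene bodies and 41.2% of those over 500 kb from a coding gene. By chromosome the share ran from 11.0% on chromosome 19 to 39.1% on X and 42.2% on chromosome 13. Of the T cell receptor loci, 13 of 15 TRA peaks were on a step, against 7 of 52 in TRB and 0 of 18 in TRG.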
